A study of Homo sapiens with 9 samples.

Results

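10 genes of the G1 checkpoint were read in 3 lines of MCF10A, a non-malignant human mammary epithelial cell line. They were the D-type cyclins CCND1, CCND2 and CCND3, the kinases CDK4 and CDK6, the inhibitors CDKN1A, CDKN1B and CDKN2C, the retinoblastoma gene RB1, and MYC. They were picked by symbol as 10 of the 60199 symbols in the count table, with earlier results of these data known. All 10 were among the 15717 genes with enough counts to be tested.

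Poly-A RNA was sequenced from 9 samples, 3 numbered replicates of each line, which are read here as separate cultures. MCF10A-CT (CT) were the parental cells, grown without added cytokine and not transformed. MC26 cells were obtained from unsorted MCF10A and M1B26 cells from a fraction sorted for BMPR1B, a receptor of BMP2, each after long exposure to BMP2 and IL6, which also remained in their culture medium. All 3 lines therefore carry what MCF10A carries, including the loss of CDKN2A and the amplification of MYC known in this line. Each transformed line is a single derivation, and M1B26 grew out of 3 soft-agar clones, so effects of the cytokines, of sorting and of selecting clones cannot be told apart. The p-values below measure the spread between 3 cultures of a line, not between derivations.

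Cells leave G1 when D-type cyclins bind CDK4 or CDK6 and the complex phosphorylates RB1, which then releases E2F factors to switch on genes of DNA replication. CDKN2C belongs to the INK4 inhibitors, which bind CDK4 and CDK6 and keep cyclins off them, whereas CDKN1A (p21) and CDKN1B (p27) bind complexes of cyclin and kinase. MYC is a transcription factor that drives growth and raises the output of this switch, and BMP signals through SMAD factors and IL6 through STAT3.

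Library totals ran from 21425118 to 80076597 counts, and CCND2 in the shallowest library still had more counts than the minimum of 10 used for testing. Levels are given as CPM, counts per 1000000 counts of a library after scaling by TMM, a method that sets a common baseline between libraries. All 10 basal mammary epithelial markers checked (keratins, TP63, integrins and others) stood at 1 CPM or more in each line, with a summed level between 8264 and 13407 CPM. KRT5 was the largest part of it, at 4631 to 7296 CPM. Single markers moved in both directions. KRT14 was at 42.2 to 61.7 CPM in CT, 766 to 1521 in MC26 and 461 to 625 in M1B26. TP63 was also higher in both transformed lines. CDH1 was at 67.6 to 86.2 CPM in CT, 37.5 to 44.8 in MC26 and 34.2 to 55.3 in M1B26. EPCAM was at 11.7 to 19.1 CPM in MC26, against 65.6 to 74.4 in CT. Leukocyte markers summed to 14.9 to 19.9 CPM in CT, 34.5 to 36.8 in MC26 and 56.9 to 78.9 in M1B26, through CD14 and CD68, while CD3E was at 0 counts in all 3 lines and PTPRC was at 0 in MC26. Luminal hormone-receptor markers summed to 440.4 to 583 CPM, nearly all of it KRT18, at 420 to 558 CPM. GATA3 was at most 18.4 CPM and FOXA1 at most 7.03. The receptor genes ESR1 and PGR were at most 0.443 and 0.0237 CPM, and TFF1 was at 0 in all 3 lines. Fibroblast markers summed to at most 78.4 CPM and endothelial markers to at most 8.25 CPM. Their part in the results below was not tested. Fewer cells of a type and less RNA per cell cannot be told apart in such bulk samples.

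The known deletion of the line was read first. CDKN2A and CDKN2B, INK4 inhibitors that lie side by side, had 0 counts in all 9 libraries. MTAP, their neighbour, had 4 counts over the 3 CT libraries, 6 over MC26 and 10 over M1B26. CDKN2C and CDKN2D were therefore the INK4 genes with measurable RNA.

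The bases upstream of 4 of these genes are shown because the results below turn on how the genes moved together or apart. CDK6 and CDKN2C rose in MC26 and fell in M1B26, CCND3 was lower in M1B26 than in MC26, and CDK4 was called in no comparison. Each run holds the 250 bases before the RefSeq start on GRCh38.p14, read on the strand of the gene. The windows are chr7:92836574-92836823 (minus strand) for CDK6, chr1:50960495-50960744 (plus strand) for CDKN2C, chr6:42048689-42048938 (minus strand) for CCND3 and chr12:57752311-57752560 (minus strand) for CDK4. The windows of CDK6 and CDKN2C lie directly upstream of the gene as GENCODE draws it, whereas those of CCND3 and CDK4 start from a RefSeq start inside the gene and so lie within it. Capitals mark GGCGCC, a GC-rich element bound by SMAD factors of the BMP pathway, or CACGTG, the E-box bound by MYC and its partner MAX.
CDK6: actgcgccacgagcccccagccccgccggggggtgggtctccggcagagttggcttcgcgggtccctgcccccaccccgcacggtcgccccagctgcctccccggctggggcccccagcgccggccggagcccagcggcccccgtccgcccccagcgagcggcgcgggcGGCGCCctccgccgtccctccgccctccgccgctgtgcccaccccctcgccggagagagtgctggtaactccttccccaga
CDKN2C: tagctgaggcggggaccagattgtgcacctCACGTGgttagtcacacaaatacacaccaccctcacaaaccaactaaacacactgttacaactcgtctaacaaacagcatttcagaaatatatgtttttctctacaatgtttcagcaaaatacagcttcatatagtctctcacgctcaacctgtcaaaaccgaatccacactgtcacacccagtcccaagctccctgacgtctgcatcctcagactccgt
CCND3: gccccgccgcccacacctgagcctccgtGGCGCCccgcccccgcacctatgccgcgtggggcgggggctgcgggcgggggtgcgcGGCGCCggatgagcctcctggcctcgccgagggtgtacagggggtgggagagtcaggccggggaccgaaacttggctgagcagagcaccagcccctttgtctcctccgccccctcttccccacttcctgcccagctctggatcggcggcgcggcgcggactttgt
CDK4: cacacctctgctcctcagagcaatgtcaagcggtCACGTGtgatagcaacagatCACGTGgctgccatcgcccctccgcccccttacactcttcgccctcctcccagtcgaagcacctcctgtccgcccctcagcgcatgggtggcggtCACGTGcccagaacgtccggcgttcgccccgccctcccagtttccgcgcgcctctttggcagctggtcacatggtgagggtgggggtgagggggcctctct

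Motifs were searched on both strands by their letters. GGCGCC stood 81 bases before the start of CDK6 and 222 and 165 bases before that of CCND3, and was found in 16.1% of the 27305 RefSeq promoters of this length. CACGTG stood 220 bases before the start of CDKN2C and at 3 places before CDK4 (216, 196 and 101 bases), and was found in 6.49% of all promoters. CDK6 and CDKN2C, which moved alike, had different motifs in these windows, which also differed in GC content (80% and 45.6%). Whether any motif acts on these genes was not tested. Both E2F motifs searched, TTTGGCGC and TTTCCCGC, were in none of the windows of these genes and in 0.553% and 1.42% of all promoters. The letters TTCNNNGAA, the palindrome of STAT factors, were found in the window of RB1 and in 6.78% of all promoters. That window (chr13:48476200-48476449) lies far inside the gene, which starts at 48303744 in GENCODE. The windows of CDKN1A and CDKN1B held none of the 5 motifs. Like those of CCND3 and CDK4, the windows of RB1, CDKN1A and CDKN1B lie inside the gene in GENCODE. The promoter table matched 7 of the 10 genes, and CCND1, CCND2 and MYC were not matched.

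**Figure D1:**
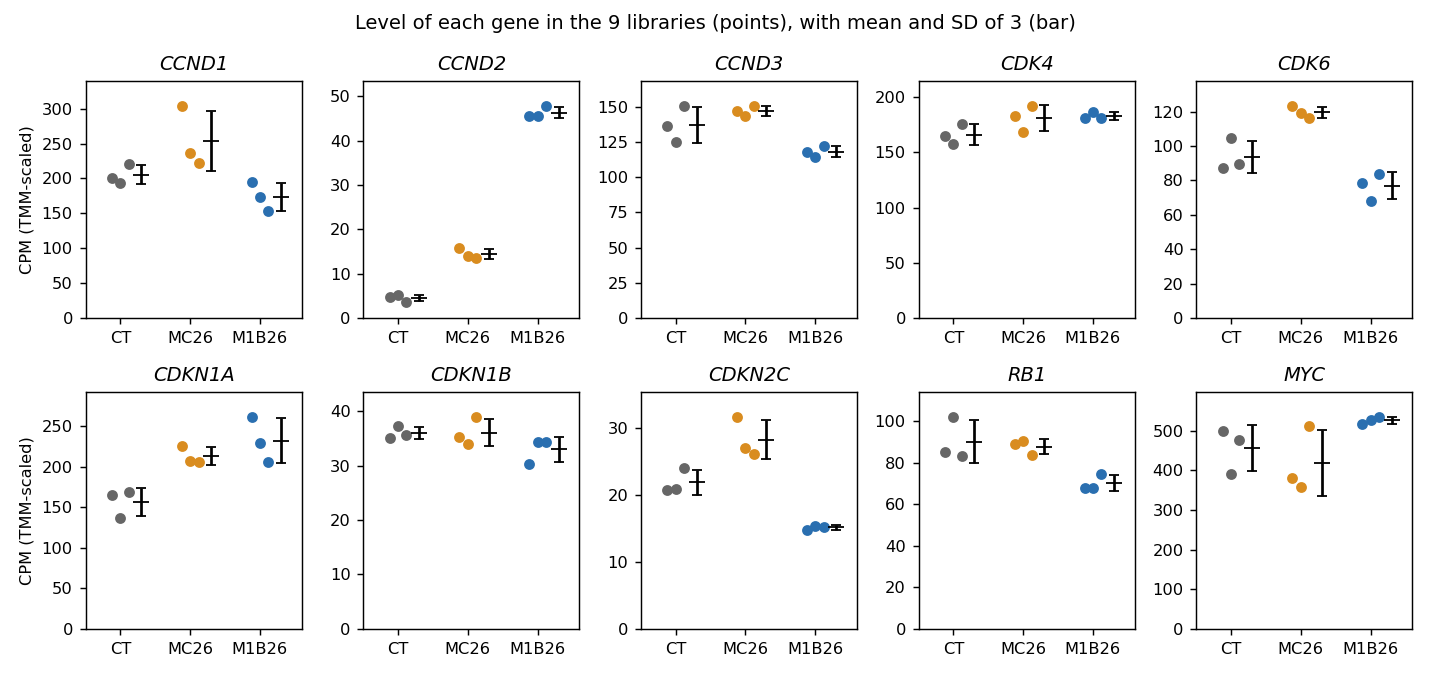
Level of each of the 10 genes in each library, in CPM on a linear axis that starts at 0, with 1 panel a gene and its own scale. Points are the 9 libraries in the groups CT, MC26 and M1B26, and bars show the mean and SD of 3 libraries. CCND2 climbs from 3.70 to 5.15 CPM in CT to 45.5 to 47.7 CPM in M1B26, while CDKN1B stays between 30.4 and 38.9 CPM in all 9 libraries.

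Against CT, 4 of the 10 genes were called in MC26, where 38.7% of all tested genes were called by edgeR at an adjusted p under 0.05. All 4 were higher (18.8% of tested genes were called higher and 19.9% lower). They were CCND2, CDKN1A, CDKN2C and CDK6. The median log2 fold change of the 10 was 0.22, and that of all tested genes was 0.00. In M1B26 against CT, 6 of the 10 were called, where 48.9% of tested genes were. Of these, CCND2 and CDKN1A were higher (background 25.2%) and CDK6, CDKN2C, RB1 and CCND3 were lower (background 23.7%). Between the transformed lines, 6 were called against 39.5% of tested genes. CCND2 was higher in M1B26 (background 21.2%), and CCND1, CCND3, CDK6, CDKN2C and RB1 were lower (background 18.4%). The ranges of the 3 libraries did not overlap for 5 genes in MC26 against CT (background 50.3%), for 9 in M1B26 against CT (background 59.0%) and for 7 in M1B26 against MC26 (background 53.5%). The comparisons with CT share the CT libraries, and each transformed line enters 2 of the 3 comparisons.

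**Figure D2:**
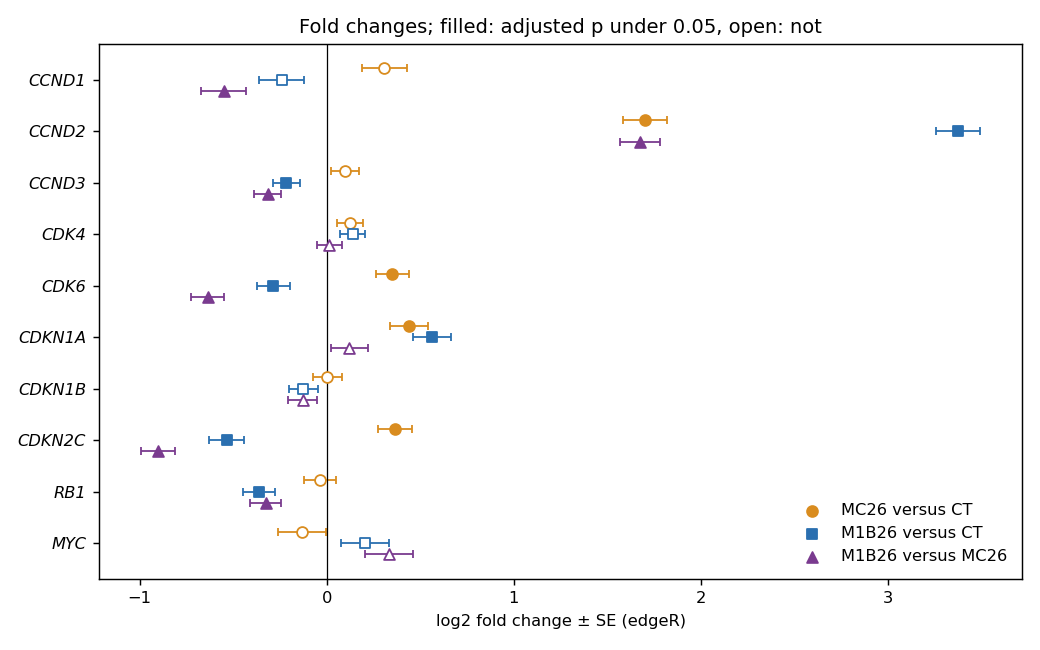
Fitted log2 fold change of the 10 genes in the 3 comparisons, with bars of 1 SE and filled points for an adjusted p under 0.05. CCND2 lies far above the others in each comparison (1.70, 3.38 and 1.68), and the other genes lie between -0.90 and 0.56.

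CCND2, a D-type cyclin best known from ovary, testis and lymphoid cells, changed most among the 10 genes. It was at 4.77, 5.15 and 3.70 CPM in CT, 15.8, 13.9 and 13.7 in MC26, and 45.5, 45.5 and 47.7 in M1B26. The groups did not overlap, and every M1B26 library stood above every MC26 library. The fold was 3.25 in MC26 against CT (log2 fold change 1.70, SE 0.12, edgeR adjusted p 2.27e-06) and 10.4 in M1B26 against CT (3.38, SE 0.12, adjusted p 1.99e-08). M1B26 stood 3.20-fold above MC26 (1.68, SE 0.11, adjusted p 2.31e-06). Among all 15717 tested genes, 134 (0.853%) had a higher log2 fold change than CCND2 in M1B26 against CT, 333 (2.12%) in MC26 against CT and 390 (2.48%) between the transformed lines. CCND2 lies on chromosome 12 (GRCh38, 4269771 to 4305353, plus strand). The 20 tested genes nearest to it on that chromosome had median log2 fold changes of 0.03, -0.12 and -0.19 in the 3 comparisons. Its antisense gene CCND2-AS1 had 0 to 5 counts a library. The annotation also draws an unnamed gene on the same strand that shares 12.5% of the exonic bases of CCND2 and is not among the symbols of the table.

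CCND1 (chromosome 11, 69641156 to 69654474, plus strand), the D-type cyclin most used in mammary epithelium, moved in another way. It was at 201, 194 and 220 CPM in CT, 303, 237 and 222 in MC26, and 194, 173 and 154 in M1B26. All MC26 libraries stood above all M1B26 libraries, whereas the ranges of CT and M1B26 overlapped at their edges. The difference of M1B26 from MC26 was -0.55 on the log2 scale (SE 0.12, edgeR adjusted p 0.00443). The difference of M1B26 from CT was -0.24 and was not called (adjusted p 0.119, 95% interval -0.50 to 0.02). MC26 stood above CT by 0.31 without being called (adjusted p 0.0614, 95% interval 0.05 to 0.57). That last value passed the threshold without MC26 replicate 3 (adjusted p 0.0242) and with DESeq2 (0.0376), and was 0.17 without MC26 replicate 1 (adjusted p 0.253). LTO1, which shares 10.4% of the exonic bases of CCND1, was also lower in M1B26 than in MC26 (-0.42, edgeR adjusted p 0.00649). Whether reads of CCND1 and LTO1 were told apart by strand is not known. In that comparison 10 of the 20 tested neighbours of CCND1 were called lower (background 18.4%) and 1 higher (background 21.2%). The neighbours had a median log2 fold change of -0.18.

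CCND3 (chromosome 6, 41934934 to 42050357, minus strand), the most widely expressed D-type cyclin, was at 136, 125 and 150.1 CPM in CT and at 147, 144 and 150.1 in MC26. In M1B26 it was at 118, 115 and 122 CPM, below every library of the other lines. The difference of M1B26 from MC26 was -0.31 (SE 0.07, edgeR adjusted p 0.00604). Against CT it was -0.22 (SE 0.07, adjusted p 0.0289). The call against CT was lost without CT replicate 1 (adjusted p 0.0685), CT replicate 3 (0.114), MC26 replicate 2 (0.0514), M1B26 replicate 1 (0.0869) or M1B26 replicate 2 (0.106). MC26 and CT were not called different (0.10, 95% interval -0.06 to 0.26).

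The make-up of D-type cyclin RNA shifted with these changes. Levels of different genes can be compared only per length, so counts were divided by the merged exonic length of each gene and scaled to sum to 1000000 in each library (TPM). Per length, CCND2 made up 0.852% ± 0.198 (SD, n = 3) of the summed D-type cyclin level in CT, 2.25% ± 0.0655 in MC26 and 9.25% ± 0.766 in M1B26. CCND1 made up 63.9% ± 0.639, 65.9% ± 3.63 and 58.0% ± 3.40, and CCND3 35.2% ± 0.791, 31.9% ± 3.57 and 32.8% ± 2.64. The summed level itself ran from 271 to 293 TPM in CT, 284 to 343 in MC26 and 219.8 to 243 in M1B26. TPM was not scaled by TMM, so it can order the lines otherwise than CPM. CDK4 averaged 166 CPM in CT and 183 in M1B26, but 223 and 215 TPM. The lowest sums, in M1B26, are therefore given for the TPM scale only. The order of CCND1 and CCND3 turned when the longest transcript was used as the length (45.6% and 53.8% in CT), while CCND2 stayed the smallest share in every line. No test was made of these shares.

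**Figure D3:**
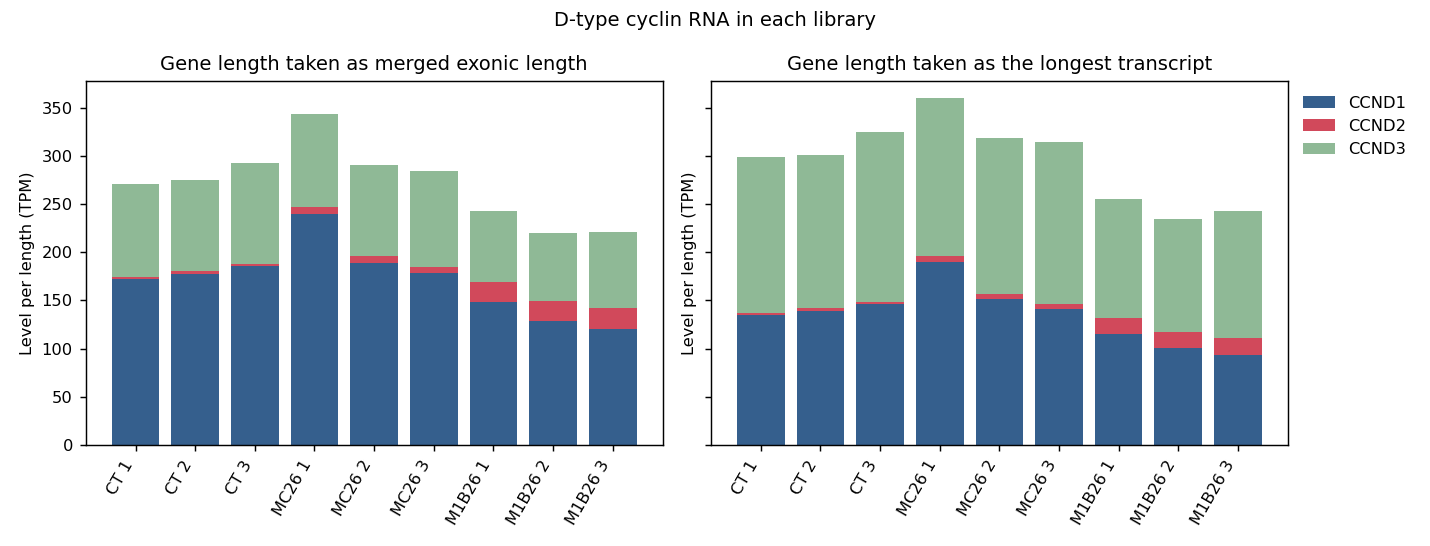
Stacked level per length of CCND1, CCND2 and CCND3 in TPM for each of the 9 libraries, with the merged exonic length on the left and the longest transcript on the right. The CCND2 segment is the smallest in every bar but grows to a mean of 21.04 TPM in M1B26 (left). The M1B26 bars are the lowest in both panels, but TPM was not scaled by TMM, so heights compare lines on that scale only.

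CDK4 and CDK6 are the kinases that D-type cyclins activate. CDK4 (chromosome 12, 57747727 to 57756013, minus strand) was at 164, 158 and 176 CPM in CT, 183, 169 and 192 in MC26, and 182, 187 and 181 in M1B26. The M1B26 libraries stood above the CT libraries. CDK4 was nevertheless called in no comparison, and its log2 differences from CT had 95% intervals of -0.03 to 0.28 in MC26 and -0.01 to 0.29 in M1B26. Between the transformed lines the interval was -0.14 to 0.17. TSPAN31 on the other strand shares 1369 exonic bases with CDK4 and had a mean of 16.2 (CT), 14.7 (MC26) and 22.1 CPM (M1B26), so reads of one could be counted for the other if strand was not used.

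CDK6 (chromosome 7, 92604921 to 92836573, minus strand) was at 87.0, 104.5 and 89.7 CPM in CT, 123, 119 and 116 in MC26, and 78.7, 68.3 and 83.5 in M1B26. The 3 groups did not overlap, with MC26 highest and M1B26 lowest. CDK6 rose in MC26 against CT (0.35, SE 0.09, edgeR adjusted p 0.0101) and fell in M1B26 against CT (-0.28, SE 0.09, adjusted p 0.0224). The direct difference of M1B26 from MC26 was -0.64 (SE 0.09, adjusted p 3.68e-04). The call in M1B26 against CT was lost without CT replicate 2 (adjusted p 0.0588) or M1B26 replicate 2 (0.0982). Per length, CDK4 made up 87.5% ± 1.59 (SD, n = 3) of the summed level of both kinases in CT, and 85.7% ± 0.940 and 90.4% ± 1.03 in MC26 and M1B26.

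Among the inhibitors, CDKN1A (chromosome 6, 36676460 to 36687337, plus strand), a p53 target that also answers other stress and growth signals, rose in both transformed lines. It was at 166, 137 and 168 CPM in CT, 226, 207 and 206 in MC26, and 261, 229 and 206 in M1B26. All 6 transformed libraries stood above all CT libraries, and the transformed lines overlapped each other. The log2 fold change was 0.44 in MC26 (SE 0.10, edgeR adjusted p 0.00592) and 0.56 in M1B26 (SE 0.10, adjusted p 9.86e-04). The transformed lines were not called different (0.12, SE 0.10, adjusted p 0.362).

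CDKN1B (chromosome 12, 12685498 to 12722369, plus strand), the inhibitor p27 that is held mainly at the protein level, was at 35.1, 37.2 and 35.6 CPM in CT, 35.3, 34.0 and 38.9 in MC26, and 30.4, 34.3 and 34.2 in M1B26. It was called in no comparison, though the M1B26 libraries stood below the CT libraries. Its log2 difference from CT had a 95% interval of -0.16 to 0.17 in MC26 and -0.29 to 0.04 in M1B26.

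CDKN2C (chromosome 1, 50960745 to 50974634, plus strand), which encodes p18, was at 20.7, 20.8 and 23.9 CPM in CT, 31.6, 27.0 and 26.1 in MC26, and 14.8, 15.4 and 15.2 in M1B26. As for CDK6, the 3 groups did not overlap, with MC26 highest and M1B26 lowest. It rose in MC26 against CT (0.37, SE 0.09, edgeR adjusted p 0.00884) and fell in M1B26 against CT (-0.53, SE 0.09, adjusted p 7.65e-04). M1B26 differed from MC26 by -0.90 (SE 0.09, adjusted p 4.72e-05), and 560 of the tested genes (3.56%) had a lower log2 fold change in that comparison. The 20 tested neighbours of CDKN2C had medians of 0.03, 0.07 and -0.02 in the 3 comparisons.

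RB1 (chromosome 13, 48303744 to 48599436, plus strand), the substrate that holds E2F factors, was at 85.4, 102 and 83.2 CPM in CT, 88.9, 90.7 and 83.9 in MC26, and 67.7, 68.0 and 74.5 in M1B26. Every M1B26 library stood below the CT and MC26 libraries, whose ranges overlapped. RB1 fell in M1B26 against CT (-0.36, SE 0.08, edgeR adjusted p 0.00460) and against MC26 (-0.33, SE 0.08, adjusted p 0.0107). MC26 and CT were not called different (-0.04, 95% interval -0.22 to 0.15). The 20 tested neighbours of RB1 had medians of 0.03 and 0.04 in the M1B26 comparisons with CT and MC26.

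MYC, on chromosome 8, varied between cultures of CT (SD 57.6 CPM around a mean of 456, n = 3) and of MC26 (83.1 around 418). In M1B26 the SD was small (9.43 around 526). It was at 500.3, 391 and 478 CPM in CT, 382, 358 and 513 in MC26, and 516, 528 and 534 in M1B26. The M1B26 libraries lay close together and above all others, while CT and MC26 overlapped. In the fit to all 9 libraries with line as its single factor, edgeR called none of the 3 comparisons. The log2 fold change from CT was -0.13 for MC26 (adjusted p 0.459) and 0.20 for M1B26 (adjusted p 0.212), and the transformed lines differed by 0.33 (adjusted p 0.0598). MC26 replicate 3 was the highest of its group. Without it, MYC was lower in MC26 than in CT (-0.30, adjusted p 0.0323), and M1B26 stood above MC26 (0.51, adjusted p 0.00248). Without MC26 replicate 2 the difference of MC26 from CT was -0.025 (adjusted p 0.906). The difference between the transformed lines also passed the threshold without CT replicate 2 (adjusted p 0.0441), with DESeq2 (0.0411) and with no filter on low counts (0.0041).

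Per merged exonic length, MYC, CDK4, CDKN1A and CCND1 were the 4 most abundant of the 10 transcripts in every line. In CT the order was MYC (309 TPM), CDK4 (223), CDKN1A (217), CCND1 (179), CCND3 (98.5), RB1 (58.4), CDK6 (31.9), CDKN2C (29.99), CDKN1B (16.2) and CCND2 (2.37). The ranges of CDK4 and CDKN1A overlapped, as did those of CDK6 and CDKN2C, and all other neighbours in this order stood apart. In MC26 the first 4 overlapped from one to the next, with CDKN1A (269.8 TPM) and MYC (259) at the head. In M1B26 CCND2 (21.04 TPM) passed CDKN2C (18.2) and CDKN1B (12.9), and its range overlapped that of CDK6 (22.9). With the longest transcript as the length, CCND2 (17.02 TPM) stood above CDKN2C (13.1) and CDK6 (16.6) but below CDKN1B (19.2) in M1B26. By that length the mean of CCND3 was above that of CCND1 in every line. In CT, CDKN1B (24.1 TPM) was then above CDK6 (23.4) and CDKN2C (21.8).

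The genes whose levels over the 9 libraries ran closest to each gene called in at least 2 comparisons were found by the Euclidean distance of centred log2 CPM among 10637 genes. For CCND2 they were SLC16A9 (distance 0.435), a monocarboxylate transporter family member, and CES1 (0.665), a carboxylesterase, which stood at 14.8, 43.5 and 138 CPM on average in CT, MC26 and M1B26. For CDKN1A they were POP7 (0.135) and MRPL52 (0.192), and for CDK6 RAPH1 (0.212) and ANKRD12 (0.217). ITFG2 (0.263) and ZNF532 (0.291) ran closest to CDKN2C. RB1 was nearest to ROCK1 (0.0897) and NCAPG2 (0.0952), and CCND3 to HNRNPUL1 (0.109) and AP1B1 (0.118). The 9 libraries share 3 lines, so these distances describe the order of the lines more than single cultures.

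**Figure D4:**
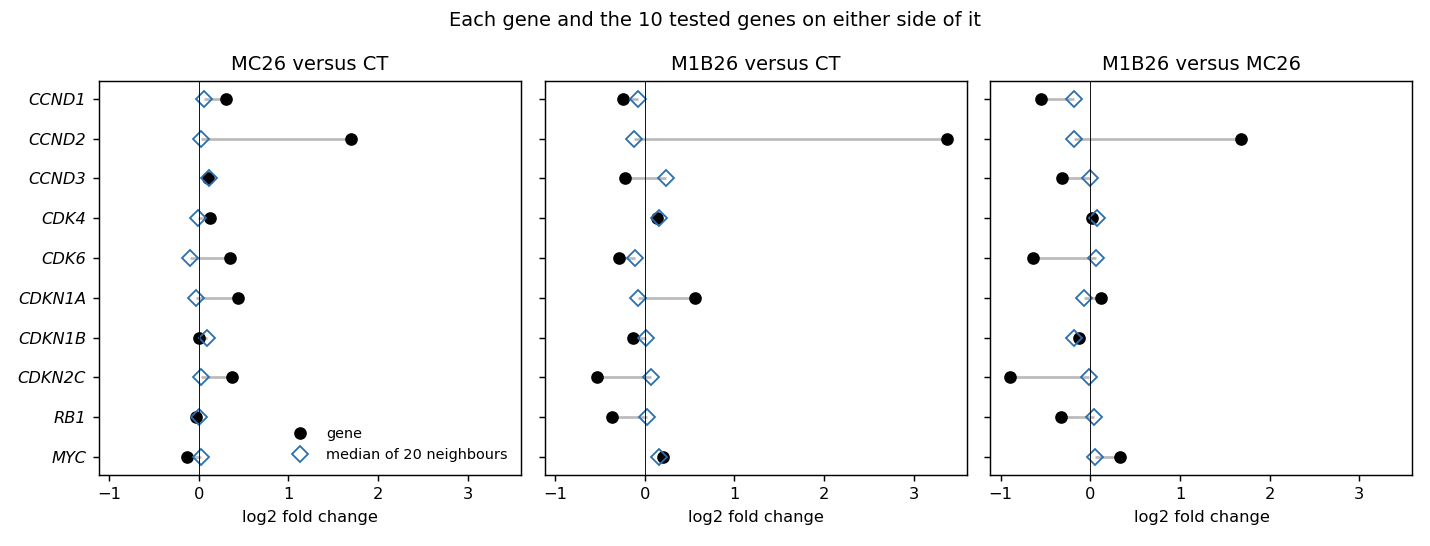
Log2 fold change of each of the 10 genes beside the median of the 20 tested genes nearest to it on its chromosome, 1 panel a comparison. The neighbours' medians lie between -0.19 and 0.24 in all comparisons, and the points of CCND2 lie furthest outside that range. Those of CDKN2C, CDK6, CDKN1A, CCND1, CCND3, RB1 and MYC also lie outside it in at least 1 comparison.

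The other genes of the pathway were then counted in the same fit. Of all tested genes, 18.8% were called higher and 19.9% lower in MC26 against CT, 25.2% and 23.7% in M1B26 against CT, and 21.2% and 18.4% in M1B26 against MC26. A share near these is no result about a list. Of 10 other G1 and S cyclins and kinases, 4 were higher and 0 lower in MC26 than in CT, and again 4 and 0 in M1B26, with medians of 0.20 and 0.14. Between the transformed lines 1 was higher and 3 were lower in M1B26. The 4 calls in MC26 became 2 without CT replicate 1 and 7 without CT replicate 2, and those in M1B26 became 2 without M1B26 replicate 1. CCNE1, the E-type cyclin that activates CDK2, averaged 16.4 ± 0.326 CPM in CT, with 29.2 ± 2.39 in MC26 and 20.5 ± 1.96 in M1B26, and was called higher in MC26 (0.83, edgeR adjusted p 4.71e-05) and in M1B26 (0.32, adjusted p 0.0123), but in M1B26 no longer without M1B26 replicate 1 (adjusted p 0.054). CCNE2 rose in MC26 by 0.41 (adjusted p 0.0119) and was lower in M1B26 than in MC26 (-0.59, adjusted p 0.00168), and its call in MC26 was lost without CT replicate 1 (0.0509). CDK2 was 0.23 higher in MC26 (adjusted p 0.0393). That call was lost with total counts only (0.163), in a fit of the 6 libraries (0.0787), and without CT replicate 1 (0.122), CT replicate 3 (0.0745), MC26 replicate 1 (0.158), M1B26 replicate 1 (0.0511) or M1B26 replicate 2 (0.0527). CCNC, which pairs with CDK8 and CDK3, was the called gene with the highest change of this list in M1B26 against CT (0.40, adjusted p 0.00143).

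Of the other inhibitors, CDKN1C (p57), an imprinted inhibitor of the CDKN1 family, fell in both transformed lines. It went from 27.5 ± 5.00 CPM in CT to 5.05 ± 2.42 in MC26 (-2.45, edgeR adjusted p 8.87e-04) and 3.63 ± 2.15 in M1B26 (-2.91, adjusted p 2.16e-04). CDKN2D (p19), the other INK4 gene measured, was lower in M1B26 than in MC26 (-0.96, adjusted p 0.00294), with 2.44 ± 0.230 and 4.77 ± 1.25 CPM. It was not called against CT in MC26 (0.51, adjusted p 0.0535) or in M1B26 (-0.45, adjusted p 0.0783). The first passed with no filter (0.0273) and without CT replicate 3 (0.0473) or MC26 replicate 3 (0.00565). The second passed with total counts only (0.0353), with 6 libraries (0.0318) and without MC26 replicate 3 (0.0268). In the M1B26 comparison with MC26, both measured INK4 genes were lower in M1B26.

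Of 12 pocket proteins and E2F factors, 6 were higher and 3 lower in MC26 than in CT, and 2 were higher and 4 lower in M1B26. M1B26 against MC26 had 2 higher and 6 lower. RBL1 (p107), which like RB1 binds E2F factors, was higher in MC26 than in CT (0.49, edgeR adjusted p 0.00135), while M1B26 stood below MC26 (-0.63, adjusted p 3.32e-04). RBL2 (p130), the pocket protein of resting cells, fell in MC26 (-0.55, adjusted p 0.00239) and was higher in M1B26 than in MC26 (0.41, adjusted p 0.0117). E2F1, an activating E2F, averaged 21.97 ± 2.46 CPM in the CT libraries, 26.8 ± 3.28 in those of MC26 and 16.3 ± 1.67 in those of M1B26, and fell in M1B26 against CT (-0.44, adjusted p 0.00909) and against MC26 (-0.72, adjusted p 7.77e-04). E2F8, a repressing E2F that is itself switched on late in G1, rose by 1.14 in MC26 (adjusted p 1.48e-04) and was lower in M1B26 than in MC26 (-1.38, adjusted p 5.61e-05). E2F5, a partner of the resting-cell pocket proteins, fell in MC26 (-0.59, adjusted p 0.00267) and was higher in M1B26 than in MC26 (0.67, adjusted p 0.00138). In M1B26 against CT, the repressor E2F6 rose by 0.49 (adjusted p 4.82e-04) and the activator E2F2 fell (-0.45, adjusted p 0.00462).

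Genes that E2F factors switch on for S phase had the largest share of calls among the 8 lists in MC26 against CT. There, 26 of 29 were called higher and 1 lower than in CT, with a median of 0.35 where all tested genes had 0.00. In M1B26, 14 were higher and 3 lower (median 0.24), and between the lines 2 were higher and 14 lower in M1B26 (median -0.17). CDT1, which licenses replication origins, rose by 0.74 in MC26 and 0.65 in M1B26 (adjusted p 3.71e-04 and 5.74e-04 by edgeR). RRM2, a subunit of ribonucleotide reductase, rose by 0.65 in MC26 (adjusted p 7.22e-04) and was lower in M1B26 than in MC26 (-0.60, adjusted p 0.00125). GINS2, part of the replicative helicase, rose by 0.56 in MC26 and 0.90 in M1B26 (adjusted p 6.35e-05 and 1.75e-06). CDC6 and TK1 of this list lie on chromosome 17, whose 843 tested genes had a median log2 fold change of 0.48 in M1B26 against CT. None of the 10 genes lies there. Without CDC6 and TK1, 12 of 27 were higher and 3 lower in that comparison, and the median was 0.16. TK1, a thymidine kinase, was 0.47 higher in M1B26 than in MC26 (adjusted p 0.0115), a call lost without MC26 replicate 2 (0.0537). MKI67, a marker of cycling cells, had a mean of 441 ± 37.9 CPM (CT), 506 ± 67.2 (MC26) and 246 ± 22.3 (M1B26), and fell in M1B26 against CT (-0.84, adjusted p 9.82e-05) while MC26 was not called (0.20, adjusted p 0.163). Without MC26 replicate 3 the latter was 0.29 (adjusted p 0.043).

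**Figure D5:**
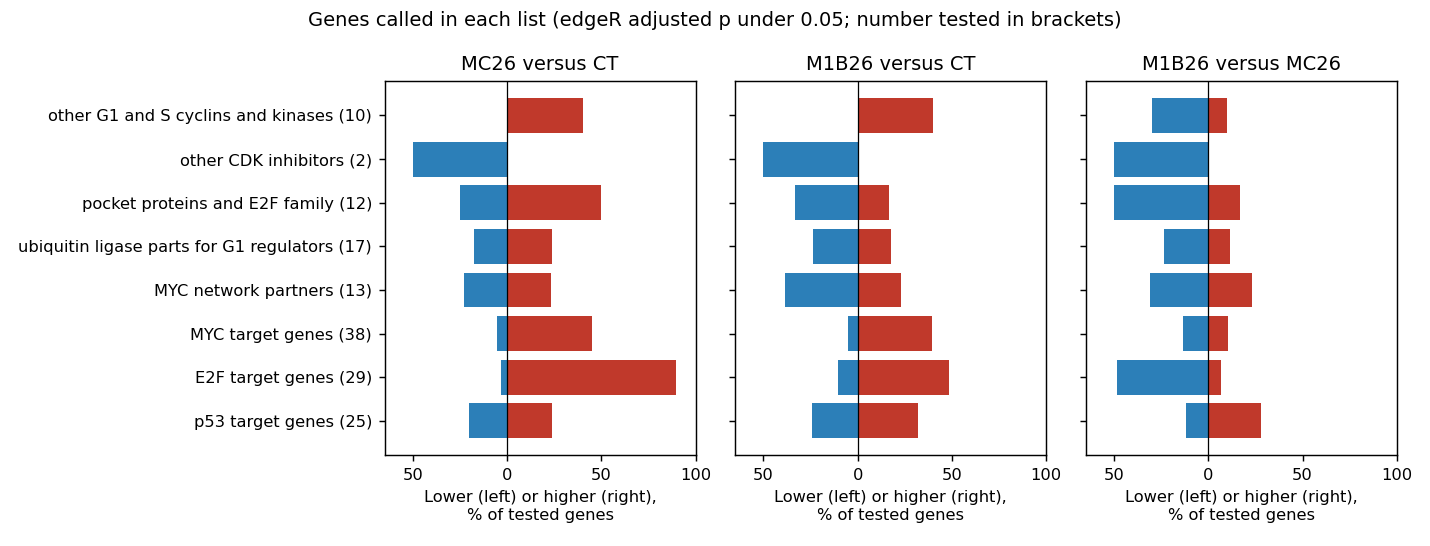
Share of tested genes called lower (left bars) and higher (right bars) at an adjusted p under 0.05 in 8 gene lists of the G1 checkpoint and its targets, 1 panel a comparison, with the number tested in brackets. The bar of E2F target genes reaches furthest right in MC26 against CT, with 26 of 29 higher and 1 lower.

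The ubiquitin ligase genes that control the turnover of these proteins showed calls in both directions, with 4 higher and 3 lower of 17 in MC26, 3 and 4 in M1B26, and 2 and 4 between the transformed lines, beside the shares of all tested genes given above. The 6 calls between the transformed lines became 3 without MC26 replicate 1, M1B26 replicate 1 or M1B26 replicate 2. SKP2, which targets CDKN1B for degradation, was called in no comparison (0.05, -0.00 and -0.05). CKS1B, its cofactor, rose by 0.34 in MC26 (edgeR adjusted p 0.00580) and 0.60 in M1B26 (adjusted p 1.22e-04). CUL4B, a scaffold of cullin ligases, fell in both (-0.73, adjusted p 9.60e-04, and -0.47, adjusted p 0.00797), and HUWE1, a ligase that can target MYC, fell in M1B26 (-0.70, adjusted p 6.24e-05). DTL, the substrate receptor that marks CDT1 and CDKN1A, rose by 0.45 in MC26 and 0.22 in M1B26 (adjusted p 2.33e-04 and 0.0124). The M1B26 call of DTL was lost with total counts only (0.12, adjusted p 0.144) and without CT replicate 1 (0.0638). RBX1, the RING subunit of cullin ligases, rose by 0.59 in M1B26 against CT (adjusted p 4.96e-05) and 0.60 against MC26 (adjusted p 8.76e-05).

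Among MYC network partners, 3 of 13 were higher and 3 lower in MC26, and 3 were higher and 5 lower in M1B26, where 18.8%, 19.9%, 25.2% and 23.7% of all tested genes were in that order. Without MNT and MLX, which lie on chromosome 17, 1 of 11 was higher and 5 were lower in M1B26. MAX, the obligate partner of MYC, was called in no comparison (0.10, -0.09 and -0.19), though the last passed without CT replicate 2 (adjusted p 0.0268) and in a fit of the 6 libraries (0.0434). MXD4, which competes with MYC for MAX, fell in MC26 (-1.05, edgeR adjusted p 5.48e-04) and in M1B26 (-0.82, adjusted p 0.00165). MXD1, of the same family, rose by 0.38 in MC26 (adjusted p 0.00443) and fell in M1B26 (-0.77, adjusted p 3.86e-05). MLX, a partner of the MXD proteins on chromosome 17, rose by 0.68 in M1B26 (adjusted p 3.73e-06). Of 38 MYC target genes 17 were higher and 2 lower in MC26, and 15 and 2 in M1B26. Between the lines 4 were higher and 5 lower in M1B26. Without EIF4A1 and MYBBP1A, which lie on chromosome 17, 13 of 36 were higher and 2 lower in M1B26 against CT. The 19 calls in MC26 became 12 without CT replicate 1 or MC26 replicate 1, and the 9 between the lines became 14 without CT replicate 2 and 5 without M1B26 replicate 2. The ribosome assembly factor PPAN rose by 0.46 in MC26 (adjusted p 0.00555), and TFRC, the transferrin receptor, fell in MC26 and M1B26 (-0.52, adjusted p 0.00293, and -0.81, adjusted p 1.30e-04). NCL, the abundant nucleolar protein nucleolin, was lower in M1B26 than in CT (-0.30, adjusted p 0.00149) and in MC26 (-0.37, adjusted p 6.50e-04), and DCTPP1, a pyrophosphatase of the nucleotide pool, was higher in M1B26 than in CT (0.79, adjusted p 9.81e-05).

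The p53 target genes were read beside CDKN1A, which is 1 of the best known of them. Of the 25 others, 6 were higher and 5 lower in MC26, and 8 were higher and 6 lower in M1B26, with medians of -0.07 and 0.04, and the backgrounds are those given for the MYC network. The 11 calls in MC26 became 7 without MC26 replicate 2. MDM2, which marks p53 for degradation, was not called in MC26 (-0.15, adjusted p 0.210) and was higher in M1B26 (0.24, edgeR adjusted p 0.0494). The M1B26 call was lost with RLE scaling, the size factors of DESeq2 (0.0516), with total counts only (0.276), with a mean of at least 50 counts (0.055) and with 6 libraries (0.0609). It was also lost without CT replicate 1 (0.144) or 3 (0.177), MC26 replicate 2 (0.0584) or 3 (0.0515), or M1B26 replicate 1 (0.111), 2 (0.0672) or 3 (0.103). GADD45A, a stress response gene, rose by 0.87 in MC26 and 0.68 in M1B26 (adjusted p 9.03e-04 and 0.00272). BBC3 (PUMA), which promotes apoptosis, fell in MC26 (-1.01, adjusted p 0.0140), with overlapping ranges and a call lost without CT replicate 3 (0.054) or MC26 replicate 2 (0.0565). FDXR, a mitochondrial reductase on chromosome 17, rose by 1.02 in M1B26 (adjusted p 2.18e-04). TP53I3, an oxidoreductase, rose by 0.64 in MC26 (adjusted p 0.00464) and fell in M1B26 (-0.48, adjusted p 0.0167), a call lost without M1B26 replicate 1 (-0.43, adjusted p 0.0671).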

How the data were processed

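Poly-A RNA of 9 cultures was sequenced. Sample titles gave the line and the replicate number. The authors deposited raw counts per gene symbol, and the submitters' processing notes name STAR 2.7.3a, Salmon 1.1.0 and GRCh38. The study's methods name Salmon, limited to protein-coding genes, for quantification. The table analysed here holds whole numbers and also non-coding genes, so it is unclear whether that step made it, and use of strand is not given in the sources used here. The labels and the study's methods give different concentrations of BMP2 and IL6, so none is printed.

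The tests were made with edgeR 4.0.16 (R 4.3.3). Low genes were removed with filterByExpr at a minimum count of 10, TMM gave scaling factors of 0.968 to 1.07, and 1 quasi-likelihood fit over the 9 libraries had line as its single factor. The p-values are 2-sided and Benjamini-Hochberg adjusted over all 15717 tested genes, and genes with an adjusted p under 0.05 were called. Fold changes are on the log2 scale, with standard errors (SE) and 95% intervals from the same fit. The common biological coefficient of variation was 10.4%. The fit was also run on simulated counts with known changes in few genes, a setting unlike these data, where many genes were called. Total counts per library ran from 21425118 to 80076597, and replicates of 1 line differed by more than sampling noise (mean chi-square per gene 11.5 to 63.8). Replicate numbers were checked for pairing and gave no clear sign of it.

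Positions and exonic lengths came from GENCODE v44. Levels per length (TPM) were scaled to the same sum in each library over the genes with a length, without TMM. Promoters came from RefSeq on GRCh38.p14. The members, gene lists and tests were chosen with earlier results of these data known. Named were the 10 members, a fixed set of regulators and markers whatever their values, the called genes with the highest and the lowest change of each list in each comparison (mean of at least 5 CPM), and the 2 genes closest to each member called in at least 2 comparisons. Some genes that the rule or the marker lists name are not reported here. Alternatives were DESeq2 1.42.0, other scaling factors, filters and thresholds, a replicate block, a fit of 6 libraries, and leaving out each library.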

Additional observations from a re-analysis of the deposited data

Results flagged for a closer look

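Of the 10 genes, 6 differed between the transformed lines when M1B26 was tested against MC26 itself, so that their changes from the shared CT libraries were unequal. In that comparison 39.5% of all tested genes were called, 21.2% higher and 18.4% lower. CCND2 was further up in M1B26 than in MC26 by 1.68 on the log2 scale. The other 5 were lower in M1B26 than in MC26, by a log2 fold change of -0.90 for CDKN2C, -0.64 for CDK6, -0.55 for CCND1, -0.33 for RB1 and -0.31 for CCND3. CDKN2C and CDK6 were called in opposite directions against CT in the 2 lines. With 3 libraries a line, single outlying libraries were not tested for.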

How the results depend on the processing

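The 30 log2 fold changes of the 10 genes were recomputed under 17 alternatives each, and 479 of the 510 values kept their direction and their side of the threshold. CCND2, CDKN1A and CDKN2C kept their calls against CT under all of them, and 5 genes (CCND1, CCND2, CCND3, CDK6 and CDKN2C) kept theirs between the transformed lines. The number of the 10 genes called ran from 3 to 6 for MC26 against CT, from 4 to 8 for M1B26 against CT and from 5 to 7 for the transformed lines. Leaving out 1 library gave 4 to 6, 4 to 6 and 6 to 7 of them in that order, and 4524 to 6127, 6282 to 7941 and 4503 to 7166 of all tested genes. At an adjusted p under 0.01, 3698 and 3685 genes were called in MC26 against CT and M1B26 against MC26, where 6081 and 6215 were at 0.05. With total counts only, 35.8% of calls in MC26 against CT and 39.6% in M1B26 against CT were higher, where TMM gave 48.5% and 51.5%. CCND1 and CDKN1B were then called lower in M1B26 than in CT (adjusted p 0.0268 and 0.0450). Same-numbered samples correlated from -0.16 to 0.30 and differently numbered ones from -0.27 to 0.27, so the numbers gave no clear sign of pairing. With the replicate block, 4, 6 and 7 of the 10 genes and 5879, 7513 and 6009 of all tested genes were called, and MYC passed between the transformed lines (adjusted p 0.0314), while CDK2 in MC26 against CT (0.0638) and MDM2 in M1B26 against CT (0.0527) did not. With no filter on low counts, CCND1 in MC26 against CT and MYC between the lines passed (adjusted p 0.0066 and 0.0041), and CCND3 in M1B26 against CT did not (0.0689).

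With the longest transcript as length, the shares of CCND1, CCND2 and CCND3 were 45.6%, 0.631% and 53.8% in CT, 48.4%, 1.71% and 49.9% in MC26 and 42.1%, 6.97% and 50.9% in M1B26, and CDK4 made up 91.7%, 90.4% and 93.7% of both kinases.

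Uncalled values near 0 changed sign. In MC26 against CT, CDKN1B was -0.073 with total counts only, -0.0093 with a mean of at least 50 counts and -0.00095 with 6 libraries, SKP2 was -0.027 and NCL -0.0077 with total counts only. Leaving out 1 library gave -0.053 to 0.050 for CDKN1B, -0.041 to 0.13 for SKP2, -0.046 to 0.034 for RBX1 and -0.083 to 0.063 for RB1. In M1B26 against CT, total counts only gave -0.024 for CDK2, -0.023 for E2F5 and -0.046 for RRM2, and no filter gave 0.0095 for SKP2. Leaving out 1 library gave -0.011 to 0.19 for E2F5, -0.010 to 0.095 for RRM2 and -0.033 to 0.025 for SKP2. In M1B26 against MC26, CDK4 was -0.0022 with total counts only and -0.034 to 0.057 without 1 library, and SKP2 was -0.13 to 0.039 without 1 library. The cause was not tested.

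A symbol-level count of poly-A RNA shows neither protein nor kinase activity. CDK4 and CCND1 share exonic bases with genes on the other strand, and with 1 derivation a line no test reaches beyond these lines.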
